A study of Mus musculus with 16 samples.

Results

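The MHC class I presentation genes are 8 genes measured by 13 probe sets, out of 12488 probe sets and 8252 singly annotated genes on the mouse U74Av2 array. They were chosen by gene symbol alone: every probe set that the array annotation assigns to B2m, H2-D1, Tapbp, Tap1, Tap2, Psmb8, Psmb9 or Psmb10 and to no other gene was taken. H2-D1 and Tapbp have 3 probe sets each, Tap1 has 2, and the other 5 genes have 1 each. The rule itself uses no measured value, but the genes were proposed with earlier results of these data known.

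RNA from 16 samples in 6 groups was hybridised, 1 array per sample. The livers labelled Abca1 +/- (2 arrays) and the +/+ livers (2 arrays) came from mice whose background mixed 129/SvJ with C57BL6/J, and their ages are not given in the labels. The embryonic stem (ES) cell groups had 3 arrays each: a Cdk4 +/- line, the +/+ line E14 named as its control, an Abca1 +/- line, and ESVJ, its +/+ parental line. Abca1 +/- and ESVJ cells were expanded on irradiated mouse embryonic fibroblast feeders, depleted of them and kept on gelatin for about 2 days, with RNA prepared by Trizol and RNeasy. E14 and Cdk4 +/- cells were feeder-independent, and their RNA was prepared by RNeasy alone, as was that of the livers. Each genotype of ES cell is represented by 1 line, the labels do not say that E14 is the parent of the Cdk4 +/- line, and nothing says that arrays of a group came from separate cultures. P-values therefore measure only the spread between these samples, which may be technical in the ES groups.

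Class I molecules display peptides from inside the cell to cytotoxic T cells. A heavy chain such as H2-D1 folds with the light chain beta-2-microglobulin, encoded by B2m, in the endoplasmic reticulum. Peptides are cut in the cytosol by proteasomes, in which interferon can exchange the constitutive catalytic subunits for Psmb8 (LMP7), Psmb9 (LMP2) and Psmb10 (MECL-1). Tap1 and Tap2 form the transporter that moves peptides across the membrane, and tapasin, encoded by Tapbp, links that transporter to the heavy chain waiting for a peptide. ES cells are known for low surface class I and hepatocytes for moderate class I expression. The genes are induced together by interferon gamma, with IRF1 and the class I transactivator Nlrc5 among their activators.

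The promoters of the members are shown first because these genes are best known for shared control elements. RefSeq promoters of build GRCm38.p6 were found for 7 of the 8 members, all but Tap2. Letters in capitals are motif matches, on either strand, in the 250 bases before the annotated start, and the 3 windows printed hold each motif described here.
B2m, chr2:122147437-122147686, plus strand: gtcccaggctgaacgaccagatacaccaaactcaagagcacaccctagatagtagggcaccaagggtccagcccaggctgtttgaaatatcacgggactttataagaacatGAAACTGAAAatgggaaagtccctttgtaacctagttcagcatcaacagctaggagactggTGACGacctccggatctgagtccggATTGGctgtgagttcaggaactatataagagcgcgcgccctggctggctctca
H2-D1, chr17:35262844-35263093, plus strand: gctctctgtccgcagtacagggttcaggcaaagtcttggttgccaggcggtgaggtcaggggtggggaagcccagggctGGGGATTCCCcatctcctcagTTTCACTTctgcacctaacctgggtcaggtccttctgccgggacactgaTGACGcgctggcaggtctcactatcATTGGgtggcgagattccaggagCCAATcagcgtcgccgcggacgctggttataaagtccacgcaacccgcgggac
Tap1, chr17:34187306-34187555, plus strand: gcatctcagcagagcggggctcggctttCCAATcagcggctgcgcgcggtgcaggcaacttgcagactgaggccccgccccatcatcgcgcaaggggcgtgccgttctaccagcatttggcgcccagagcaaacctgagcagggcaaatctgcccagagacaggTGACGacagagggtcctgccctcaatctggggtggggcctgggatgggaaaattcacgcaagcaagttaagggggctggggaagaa
The interferon-stimulated response element (ISRE, GAAA, any 2 bases, GAAA) occurred in the B2m window, 139 to 130 bases before the start, as in 2.98% of 32851 promoter windows of the same length. It contains the shorter IRF motif (AANNGAAA), which was also found in H2-D1, 150 to 143 bases before the start, and in 21.3% of all windows. H2-D1 alone of the 7 held the NF-kB motif (GGGGA directly followed by TTCCC), 171 to 162 bases before the start, present in 0.0852% of all windows. The TGACG core of sites for CREB and ATF factors occurred in 4 of 7 member windows and 17.8% of all, and the CCAAT box in 5 of 7 and 33.8% of all. Both member counts take the same bases for Tap1 and again for Psmb9, whose windows overlap, so the 7 windows are not independent. A match is a description of the reference letters, and the DNA of these lines and mice was not analysed here.

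On the mouse map Psmb9, Tap1, Psmb8 and Tap2 adjoin in that order among the coding genes of chromosome 17, between H2-DMb1 and H2-Ob, so that genes for proteasome subunits alternate with genes for the transporter. Psmb9 and Tap1 run in opposite directions, and their 2 promoter windows share 225 bases, the TGACG and CCAAT matches of Tap1 among them. H2-D1 and Tapbp lie elsewhere on chromosome 17, B2m on chromosome 2 and Psmb10 on chromosome 8.

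Signals are MAS5 intensities, rescaled here so that the 2% trimmed mean of every array is 500. Changes are differences of log2(signal + 32), which understates changes of dim probe sets, and "passed" means a limma p of at most 0.05 after Benjamini-Hochberg adjustment over all probe sets tested. Cdk4 (160538_at) averaged 3678 ± 209 in Cdk4 +/- cells and 5716 ± 188 in E14 cells (SD, n = 3 each). Abca1 (94354_at) averaged 110 ± 14.8 in Abca1 +/- ES cells and 141 ± 38.1 in ESVJ cells (SD, n = 3 each). Its arrays overlapped there, at 94.0 to 123 in Abca1 +/- and 102 to 178 in ESVJ cells. In liver this probe set went against the label, at 555 and 699 in the livers labelled Abca1 +/- and 301 and 327 in the +/+ livers. A second Abca1 probe set (97198_at) overlapped, at 41.5 to 161 in the livers labelled Abca1 +/- and 140 to 295 in the +/+ livers. It overlapped in ES cells as well, at 65.4 to 132 in Abca1 +/- and 91.6 to 126 in ESVJ cells. Where the probes lie relative to the mutation is not given. Replicate 1 of the livers labelled Abca1 +/- stood apart in RNA quality: its ratios of 3' to 5' probe signal were 8.23 for actin, against 1.78 to 2.14 in the other livers and 1.04 to 1.40 in ES arrays, and 4.10 for Gapdh, against 0.815 to 1.13 in the other livers and 0.801 to 1.19 in ES arrays. The tissues were as labelled by markers, with summed signals of 9 hepatocyte genes of 209856 to 274872 in livers and 427 to 931 in ES arrays, and of 10 ES cell genes of 560 to 795 in livers and 34079 to 64457 in ES arrays.

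B2m (93088_at), the light chain that every classical class I molecule needs, had its highest group means in the livers and its lowest in Abca1 +/- and ESVJ cells. Its signal was 16609 and 17450 in livers labelled Abca1 +/- and 12270 and 14366 in +/+ livers. In ES cells it was 1988, 1466 and 1693 in the Cdk4 +/- arrays, 887, 1139 and 1106 in E14, 219, 224 and 222 in Abca1 +/-, and 183, 302 and 112 in ESVJ. All neighbours in this order were apart except Abca1 +/- and ESVJ, which overlapped. Being apart was common: 30.3% of all probe sets tested were apart and higher between the livers, and 13% in Cdk4 +/- against E14. B2m passed in neither comparison (adjusted p = 0.588 and 0.0987).

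H2-D1 is a classical heavy chain, and all 3 of its probe sets carry the suffix for probes shared within a gene family, so their signal may include other class I heavy chains. The probe set 97540_f_at read 13888 and 14248 in livers labelled Abca1 +/-, 10058 and 10999 in +/+ livers, 667, 625 and 772 in Cdk4 +/- cells, 1043, 984 and 1049 in E14, 586, 556 and 690 in Abca1 +/- cells, and 551, 457 and 605 in ESVJ. The livers lay far above all ES arrays, and E14 lay above the other 3 ES groups, which overlapped with their neighbours. Probe set 101886_f_at ranged from 7643 to 10294 over the 4 livers and from 391 to 776 over the 12 ES arrays. Probe set 97541_f_at was at 1295 and 958 in livers labelled Abca1 +/- and 417 and 460 in +/+ livers, while no ES array exceeded 60.2. A further probe set, 102161_f_at, is annotated to H2-D1 and 9 other genes and is no member: it averaged 6335 in livers labelled Abca1 +/- and 8001 in +/+ livers, and in ES cells from 275 in ESVJ to 423 in E14.

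Tapasin and the transporter followed a different order. Tapbp by 100154_at was at 1290, 1695 and 1411 in Cdk4 +/- cells, 2070, 2085 and 1828 in E14, 539, 516 and 521 in Abca1 +/- cells and 508, 491 and 378 in ESVJ. The same probe set read 2109 and 1163 in livers labelled Abca1 +/- and 721 and 577 in +/+ livers, so that E14 cells, not +/+ livers, had the higher tapasin signal. The other Tapbp probe sets did not share this order: 102689_at had its highest group mean in +/+ livers (556) and its lowest in Abca1 +/- ES cells (239), and 162104_f_at stayed between 417 and 904 in all arrays with every neighbouring pair of groups overlapping. Tap1 by 103035_at was at 729 and 482 in livers labelled Abca1 +/-, 338 and 373 in +/+ livers, 390, 433 and 392 in Cdk4 +/- cells, 486, 476 and 457 in E14, 166, 181 and 162 in Abca1 +/- cells, and 151, 131 and 145 in ESVJ. Every Cdk4 +/- and E14 array was thus above every Abca1 +/- and ESVJ array for Tap1 by 103035_at and Tapbp by 100154_at. Between E14 and ESVJ 19.8% of all probe sets tested passed as higher and 22.8% as lower. Tapbp by 162104_f_at had group means in the other order, at 541 in Cdk4 +/-, 534 in E14, 696 in Abca1 +/- and 619 in ESVJ cells. The second Tap1 probe set, 162278_r_at, whose suffix marks relaxed design rules, stayed between 5.23 and 119 in ES cells, and Tap2 (102873_at) was at 8.40 to 73.2 in ES cells. Tap2 reached 190 in replicate 1 of the livers labelled Abca1 +/- but 39.4 in replicate 2, and 21.9 and 30.7 in +/+ livers, so the bright value rests on the array with the high 3' to 5' ratios.

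The 3 immunoproteasome subunits were not alike. Psmb8 (102791_at) was at 981 and 893 in livers labelled Abca1 +/-, 984 and 1229 in +/+ livers, 169, 278 and 189 in Cdk4 +/- cells, 503, 535 and 274 in E14, 127, 152 and 137 in Abca1 +/- cells and 108, 117 and 134 in ESVJ. Livers were highest, E14 was highest among ES lines, and its replicate 3 overlapped the Cdk4 +/- range. Psmb9 (93085_at) was at 511 and 641 in livers labelled Abca1 +/- and 629 and 967 in +/+ livers, but at 16.3 to 167 in ES cells, where Cdk4 +/- arrays were lowest, at 16.3 to 21.99, and E14 arrays ran from 23.3 to 120. Psmb10 (101486_at) differed little between tissues, at 1246 and 1119 in livers labelled Abca1 +/-, 1072 and 1410 in +/+ livers, 460, 706 and 539 in Cdk4 +/- cells, 1230, 890 and 769 in E14, 943, 1090 and 998 in Abca1 +/- cells and 829, 986 and 894 in ESVJ. For Psmb10 every Cdk4 +/- array lay below every other array of the series.

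**Figure D1:**
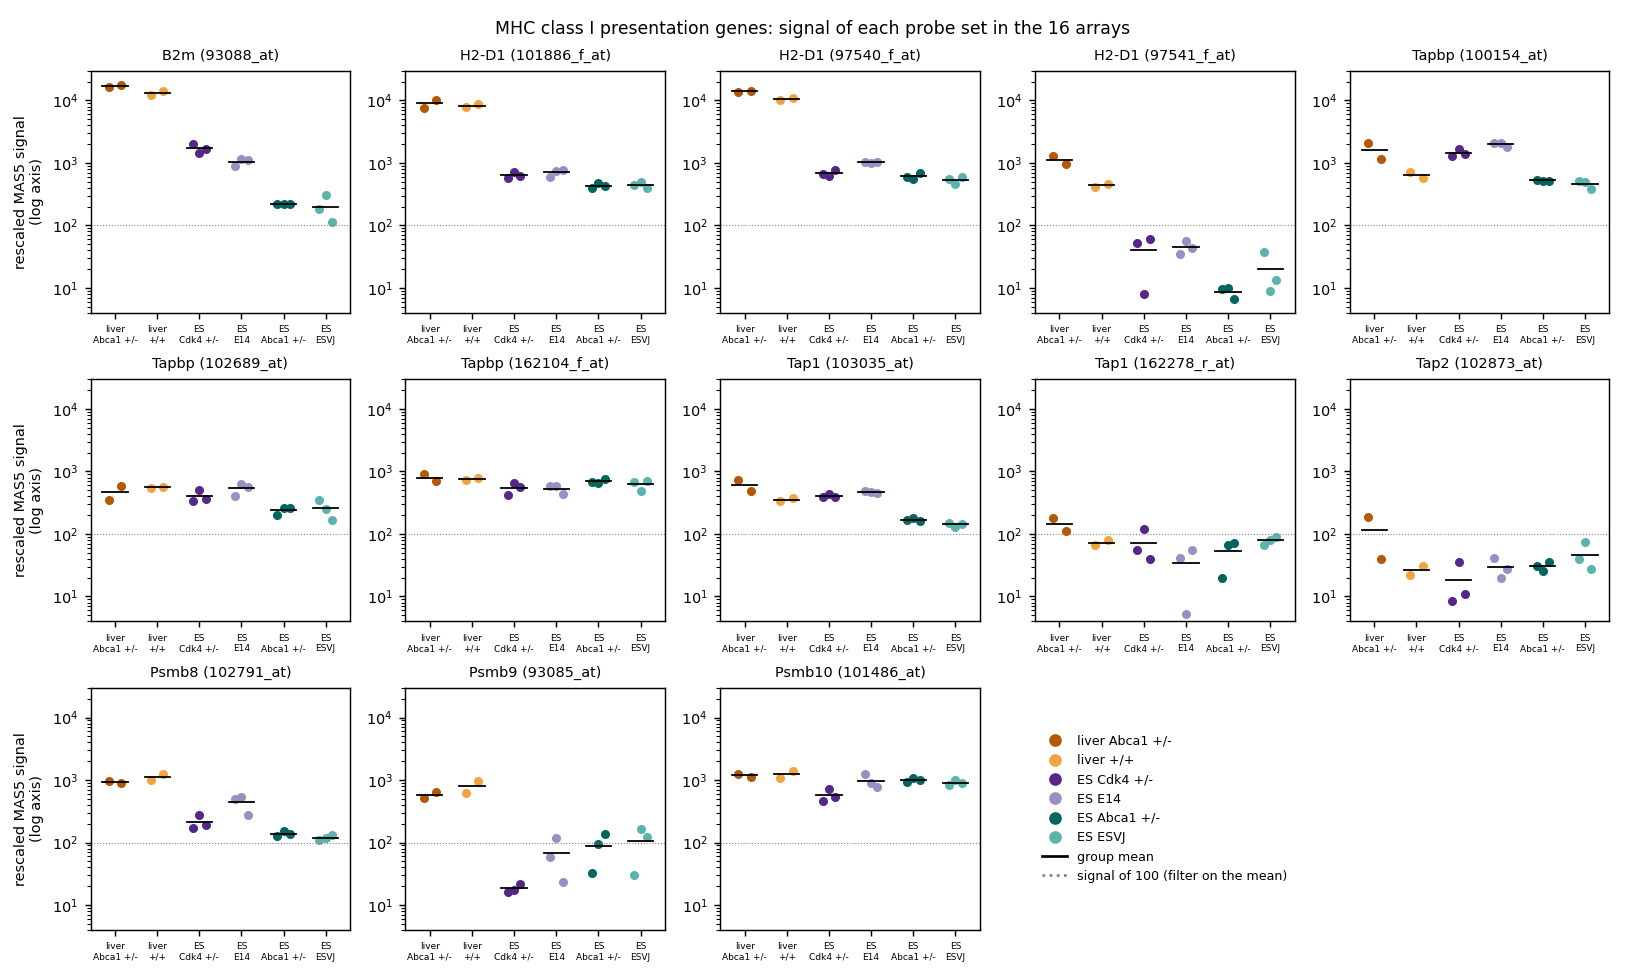
Rescaled MAS5 signal (log axis) of the 13 member probe sets in each array, by group, with black lines for group means and a dotted line at a signal of 100, the minimum mean for testing. B2m, H2-D1, Psmb8 and Psmb9 were highest in the livers, Tapbp (100154_at) had its highest group mean in E14 cells, and Psmb10 was lowest in Cdk4 +/- cells.

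In Cdk4 +/- ES cells set against E14, 1 probe set of the heavy chain H2-D1 and 2 immunoproteasome subunits passed as lower, and no member passed as higher. Of the 13 member probe sets 9 were bright enough to test, and 3 of the 9 passed, all lower, where 2.33% of 7349 probe sets passed as lower, 2.59% as higher and 4.91% in either direction. Psmb8 averaged 212 ± 58.1 in Cdk4 +/- cells and 437 ± 142 in E14 cells (SD, n = 3 each), a log2 difference of -0.92 (SE 0.23, adjusted p = 0.0374). Psmb10 averaged 569 ± 125 in Cdk4 +/- cells and 963 ± 239 in E14 cells, a log2 difference of -0.72 (SE 0.17, adjusted p = 0.0321). H2-D1 by 97540_f_at averaged 688 ± 75.9 in Cdk4 +/- cells and 1025 ± 35.5 in E14 cells, a log2 difference of -0.56 (SE 0.14, adjusted p = 0.0340), while 101886_f_at differed by -0.14 (adjusted p = 0.628) with overlapping arrays. The H2-D1 call was therefore made by 1 of its 2 tested probe sets.

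The other members gave values that did not pass. Tapbp by 100154_at differed by -0.44 (95% interval -0.74 to -0.15, adjusted p = 0.0796) and Tap1 by -0.21 (-0.50 to 0.08, adjusted p = 0.418), both with every Cdk4 +/- array below every E14 array. B2m went the other way, at 1716 ± 262 in Cdk4 +/- cells and 1044 ± 137 in E14 cells, a log2 difference of 0.70 (95% interval 0.21 to 1.19, adjusted p = 0.0987), with every Cdk4 +/- array above every E14 array. In all, 4 of the 9 were apart and lower and 1 apart and higher, against 11.9% and 13% of all probe sets tested, and 5 had an unadjusted p under 0.05, against 20.8%. The median difference of the 9 was -0.38, and that of all probe sets tested was 0.02. Light chain and heavy chain thus had opposite signs here, and only the heavy chain probe set passed.

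The 3 calls depended on single arrays and on the fit: 0 of the 9 passed without the signal minimum or in a fit of all 16 arrays. Without replicate 1 or 2 of E14, or without replicate 1 or 3 of the Cdk4 +/- group, 0 of the 9 passed, and Psmb8 had adjusted p from 0.127 to 0.155 and Psmb10 from 0.0774 to 0.141. H2-D1 by 97540_f_at passed in 0 of 6 such cases, with adjusted p from 0.0504 to 0.118, and no member changed sign but Tapbp by 162104_f_at, whose difference was 0.01. Replicate 2 of the Cdk4 +/- group, replicate 1 of the Abca1 +/- group and replicate 3 of the ESVJ group had a BioB hybridisation control signal of 2808 to 2985, against 557 to 1830 in the other 9 ES arrays. Without those 3 arrays Psmb8 (-1.11, adjusted p = 0.0258) and Psmb10 (-0.88, adjusted p = 0.0207) passed, as did Tapbp by 100154_at (-0.55, adjusted p = 0.0259) and B2m (0.80, adjusted p = 0.0325), and H2-D1 did not (-0.50, adjusted p = 0.0657). With high or low BioB as a term, Psmb8, Psmb10 and B2m passed (adjusted p = 0.0364, 0.0371 and 0.0395) and H2-D1 had adjusted p = 0.0504. Of 10 ES cell markers 2 were higher in Cdk4 +/- cells, and fibroblast markers (9 of 10 on the array) summed to 3702 to 4264 in Cdk4 +/- and 3257 to 3483 in E14 arrays with 0 of 4 tested passed, and their part in these differences was not tested.

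In Abca1 +/- ES cells set against their parental line ESVJ, no member probe set passed. Of the 9 tested 0 passed, with adjusted p of 0.9997 for each, and 0 had an unadjusted p under 0.05, where 0.0272% of all probe sets passed and 3.28% had such an unadjusted p. Differences ran from -0.05 for Tapbp by 102689_at to 0.22 for B2m (95% interval -0.27 to 0.71). Tap1 averaged 170 ± 10.2 in Abca1 +/- cells and 142 ± 10.5 in ESVJ cells (SD, n = 3 each), and Tapbp by 100154_at averaged 525 ± 11.7 in Abca1 +/- cells and 459 ± 70.8 in ESVJ cells. Both were higher in every Abca1 +/- array, with intervals of -0.08 to 0.50 and -0.10 to 0.49 that hold 0, and 3.93% of all probe sets were apart in this direction. The intervals of Psmb8 (-0.33 to 0.66) and Psmb10 (-0.22 to 0.53) do not contain the differences of -0.92 and -0.72 seen with Cdk4 +/-. Those differences carry an error of their own, and the direct test given next did not pass for either gene.

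The difference between the 2 mutation effects was tested directly, as the Cdk4 +/- minus E14 difference less the Abca1 +/- minus ESVJ difference. None of the 9 members passed, while 0.626% of all probe sets did. The values were -1.09 for Psmb8 (95% interval -1.79 to -0.39, adjusted p = 0.137), -0.88 for Psmb10 (-1.41 to -0.35, adjusted p = 0.118), -0.73 for H2-D1 by 97540_f_at (-1.15 to -0.32, adjusted p = 0.0999) and -0.64 for Tapbp by 100154_at (-1.05 to -0.22, adjusted p = 0.139). With Tap1 (-0.42), 5 of the 9 had an unadjusted p under 0.05, against 15.2% of all probe sets.

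The 2 +/+ ES lines differed in more members. E14 cells set against ESVJ cells had higher signal for 7 of the 9 tested probe sets and lower for 0, in a comparison where 19.8% of all probe sets passed as higher, 22.8% as lower and 42.6% in either direction. B2m averaged 1044 ± 137 in E14 cells and 199 ± 96.1 in ESVJ cells (SD, n = 3 each), 4.92-fold higher (log2 difference 2.30, SE 0.23, adjusted p = 1.56e-06). Tapbp by 100154_at was 4.15-fold higher (2.05, SE 0.14, adjusted p = 3.25e-08), Psmb8 2.99-fold (1.58, SE 0.23, adjusted p = 7.57e-05) and Tap1 2.90-fold (1.53, SE 0.14, adjusted p = 5.15e-07). H2-D1 was higher as well, 1.56-fold by 101886_f_at and 1.87-fold by 97540_f_at (adjusted p = 0.00266 and 1.07e-04). Light chain, heavy chain, tapasin by this probe set and Tap1 by 103035_at were thus all higher in E14. The second Tap1 probe set, 162278_r_at, was too dim to test and lay the other way, at 5.23 to 54.9 in E14 and 67.7 to 89.0 in ESVJ, and Tap2, also not tested, averaged 29.6 in E14 and 46.6 in ESVJ.

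Of the 2 immunoproteasome subunits tested, Psmb10 did not pass, at 963 ± 239 in E14 cells and 903 ± 78.8 in ESVJ cells, a log2 difference of 0.07 (95% interval -0.31 to 0.44, adjusted p = 0.788). For Tapbp, 102689_at differed by 1.004 (adjusted p = 0.00302), whereas 162104_f_at differed by -0.20 (adjusted p = 0.402). The median of the 9 members was 1.004 and that of all probe sets -0.09. All 7 passed again without any 1 of the 6 arrays. Line, feeder culture and RNA preparation differ together between E14 and ESVJ and cannot be told apart. Summed fibroblast marker signal (9 genes) was 3257 to 3483 in E14 and 2359 to 2749 in ESVJ, and of the 4 fibroblast markers tested 2 were higher and 1 lower in E14, with Col1a1 at 876 to 1005 in E14 and 313 to 431 in ESVJ but Col1a2 at 837 to 894 in E14 and 1233 to 1386 in ESVJ, the line grown on feeders. Of the ES cell markers 9 of 10 were lower in E14 and 1 was higher. Their part in the result was not tested.

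**Figure D2:**
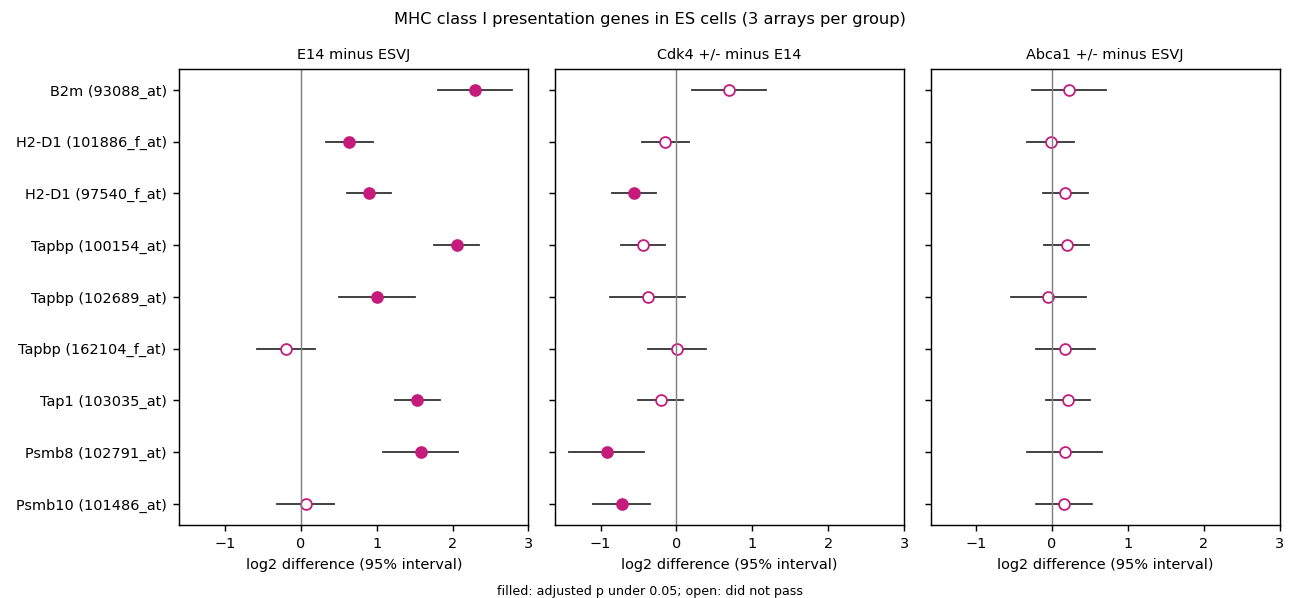
Log2 differences (points, 95% intervals as bars) of the 9 member probe sets tested in ES cells, 3 arrays per group, with filled points for adjusted p under 0.05. E14 minus ESVJ has 7 filled points, all above 0, Cdk4 +/- minus E14 has 3, all below 0, and Abca1 +/- minus ESVJ has 0.

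Other parts of the pathway did not follow the members as a whole. The list of constitutive 20S proteasome genes held Psmb5, Psmb6 and Psmb7 (the counterparts of Psmb8, Psmb9 and Psmb10, in that order), core subunits and the assembly factor Pomp. It gave 0 higher and 0 lower of 15 in Cdk4 +/- cells (median -0.04) and 0 higher and 7 lower of 15 in E14 against ESVJ (median -0.40). The core subunits Psma2 and Psma4 fell by 0.83 and 0.64 on the log2 scale in that comparison (adjusted p = 6.87e-04 and 8.90e-04). Psmb5, the counterpart of Psmb8, differed there by 0.20 (adjusted p = 0.363), Psmb6 by -0.40 (adjusted p = 0.0610) and Psmb7 by -0.45 (adjusted p = 0.0143). In Cdk4 +/- against E14 Psmb5, Psmb6 and Psmb7 were at -0.58, -0.04 and 0.20 (adjusted p = 0.0674, 0.931 and 0.435). Psme1, a subunit of the PA28 activator that interferon induces, was higher in E14 than in ESVJ (1.06, adjusted p = 2.18e-05) and lower in Cdk4 +/- than in E14 (-0.52, adjusted p = 0.0442). Its relative Psme3, which forms the nuclear activator, passed in neither.

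Of 14 other class I and class I-like heavy chains on the array, 8 were bright enough to test in ES cells. Among these 8, H2-K1, the second classical heavy chain, was higher in E14 than in ESVJ (1.004, adjusted p = 8.32e-06), with 1347 ± 50.3 in E14 cells and 657 ± 58.9 in ESVJ cells (SD, n = 3 each). Its probe set carries the same family suffix as those of H2-D1, so its signal may include other class I heavy chains. H2-Q10, a secreted class I molecule of the liver, was lower in E14 (-0.39, adjusted p = 0.0450), and in Cdk4 +/- against E14 0 of the 8 passed, H2-K1 being at -0.29 (adjusted p = 0.176). Of 6 genes of peptide loading and the endoplasmic reticulum, the lectin chaperone Canx was lower (-0.46, adjusted p = 0.0300) and the loading-complex oxidoreductase Pdia3 higher (0.63, adjusted p = 0.0375) in E14 than in ESVJ. In Cdk4 +/- cells the translocon subunit Sec61b was lower than in E14 (-0.71, adjusted p = 0.0322) and the other 5 did not pass. Of 3 class II genes bright enough to test, only H2-DMa, the peptide editor of class II, passed, higher in E14 than in ESVJ (1.04, adjusted p = 4.44e-04).

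Of the interferon lists 15 receptors and regulators and 26 induced genes were on the array, of which only 11 and 8 were bright enough to test in ES cells. Interferon signalling and interferon-induced genes passed in both directions, with 5 of 11 regulators and 6 of 8 induced genes called in E14 against ESVJ, where 42.6% of all probe sets were, so that the regulators' share is near that of all probe sets. In that comparison, 3 of 11 receptors and regulators were higher (the kinase Jak2 by 1.42, the NF-kB subunit Rela by 0.80 and the feedback inhibitor Socs1 by 0.77) and 2 were lower (the kinase Tyk2 at -1.02 and Rfxank, a subunit of the factor that binds class I and class II promoters, at -0.55). Of 8 interferon-induced genes, the GTPase genes Gbp2, Gbp3 and Irgm1 (2.39, 1.87 and 1.27) and the ubiquitin-like modifier Isg15 (1.10) were higher, and the RNA editor Adar (-1.16) and Ifitm1 (-0.88) lower. Irf1, an activator of class I genes, was at 762 ± 217 in E14 cells and 588 ± 31.0 in ESVJ cells and was not among those that passed. In Cdk4 +/- against E14, Socs1 was lower, at 177 ± 25.8 in Cdk4 +/- and 459 ± 61.5 in E14 cells (log2 difference -1.23, adjusted p = 7.06e-04), as was Trim25, an interferon-induced ubiquitin ligase, at 800 ± 79.3 in Cdk4 +/- and 1537 ± 179 in E14 cells (-0.91, adjusted p = 0.00789). The other 10 regulators and 7 induced genes did not pass, with list medians of 0.11 and -0.29. In the difference between the mutation effects both Socs1 (-1.20, adjusted p = 0.0242) and Trim25 (-1.21, adjusted p = 0.0295) passed, and in Abca1 +/- against ESVJ none of the genes of these lists did.

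**Figure D3:**
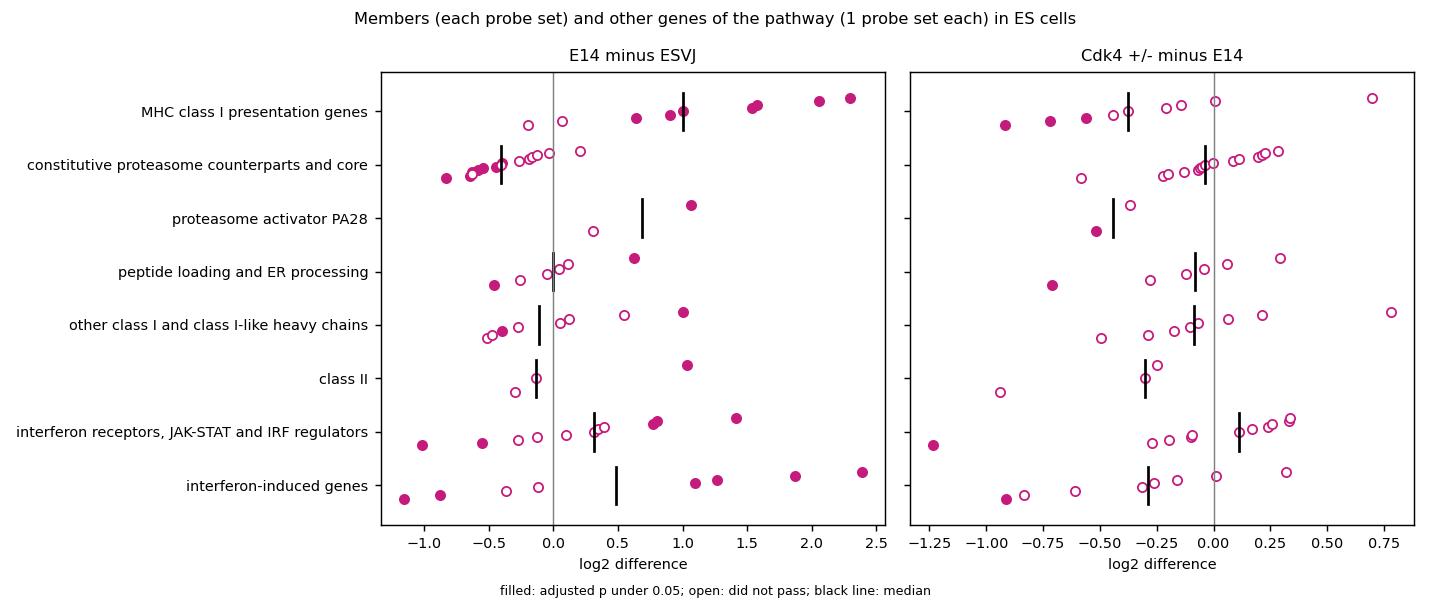
Log2 differences in ES cells of the members (each tested probe set) and of 7 lists of other pathway genes (1 probe set per gene), filled where adjusted p was under 0.05, with black lines for medians. The member median is 1.004 in E14 minus ESVJ, where that of the constitutive proteasome is -0.40, and -0.38 in Cdk4 +/- minus E14, where that of the constitutive proteasome is -0.04.

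The genes whose signal followed a member most closely over the 12 ES arrays were sought among 6642 single-gene probe sets. They are given as a description of 4 groups of 3 arrays, in which any gene with the same group differences scores high. For B2m these were Spsb1, Id2 and Capn2 (Pearson r = 0.990, 0.988 and 0.985), and Spsb1 averaged 1839 in Cdk4 +/-, 1283 in E14, 153 in Abca1 +/- and 144 in ESVJ cells. For H2-D1 (97540_f_at) they were Wwc1, Rab31 and Fosl1 (r = 0.945, 0.935 and 0.930), and for Psmb8 Lefty1, Tcirg1 and Ltb (r = 0.970, 0.952 and 0.952). For Psmb10 they were Selenoh, Rbck1 and Lsm2 (r = 0.947, 0.944 and 0.939), of which Selenoh averaged 3711 in Cdk4 +/-, 5699 in E14, 6503 in Abca1 +/- and 6597 in ESVJ cells. The 4 members had no neighbour in common among these 12 genes, but with only 3 of 6642 kept for each member, nothing about the members follows from that.

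Between the livers, no member passed. Of 12 member probe sets tested in livers labelled Abca1 +/- against +/+ livers 0 passed, where 0.014% of 7160 did, and 2 had an unadjusted p under 0.05, where 18.4% of all did. With 2 arrays a group and a typical 95% interval of ±0.85 on the log2 scale, moderate differences were not detectable. The 2 were H2-D1 by 97541_f_at, at 1126 ± 238 in livers labelled Abca1 +/- and 438 ± 30.4 in +/+ livers (SD, n = 2 each; log2 difference 1.29, 95% interval 0.53 to 2.04, adjusted p = 0.123), and Tapbp by 100154_at, at 1636 ± 669 in livers labelled Abca1 +/- and 649 ± 102 in +/+ livers (1.24, 0.39 to 2.09, adjusted p = 0.161). Other probe sets of both genes differed by less, with 0.12 and 0.42 for H2-D1 and -0.28 and 0.07 for Tapbp. B2m differed by 0.36 (-0.35 to 1.07), Tap1 by 0.69 (-0.08 to 1.47), Psmb8 by -0.23 (-0.97 to 0.51), Psmb9 by -0.43 (-1.22 to 0.37) and Psmb10 by -0.06 (-0.81 to 0.69). In these 4 livers 6 of the 12 were apart and higher and 1 apart and lower, against 30.3% and 21.4% of all.

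Without replicate 1 of the livers labelled Abca1 +/-, the array with the high 3' to 5' ratios, the difference of Tapbp by 100154_at was 0.82 (adjusted p = 0.250), that of Tap1 0.41 (adjusted p = 0.544), and that of H2-D1 by 97541_f_at 1.08 (adjusted p = 0.139). Tapbp then had 0.06 by 102689_at and -0.12 by 162104_f_at, each opposite in sign to its value over all 4 livers. Without replicate 2 of that group, the differences were 1.66 for Tapbp by 100154_at, 1.498 for H2-D1 by 97541_f_at and 0.98 for Tap1. These values rest on replicate 1 alone, the array with the high 3' to 5' ratios, and a single array gives its group no spread of its own. The constitutive proteasome list had a median of -0.92 in the full comparison with 0 of 15 passed, Psma7 being at -1.67 and Psmb1 at -1.48. Summed signal of the 17 of 20 leukocyte and Kupffer cell markers on the array was 8334 and 13125 in livers labelled Abca1 +/- and 6656 and 8312 in +/+ livers. Of these markers 0 of 13 tested passed, and 4 of the 17 averaged under 100 in each liver group. The 8 endothelial markers summed to 4022 and 4868 in livers labelled Abca1 +/- and 2819 and 3729 in +/+ livers, with 0 of 7 tested passed. Their part in these values was not tested, and in whole tissue a different number of cells of a type and a different RNA amount per cell cannot be told apart.

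**Figure D4:**
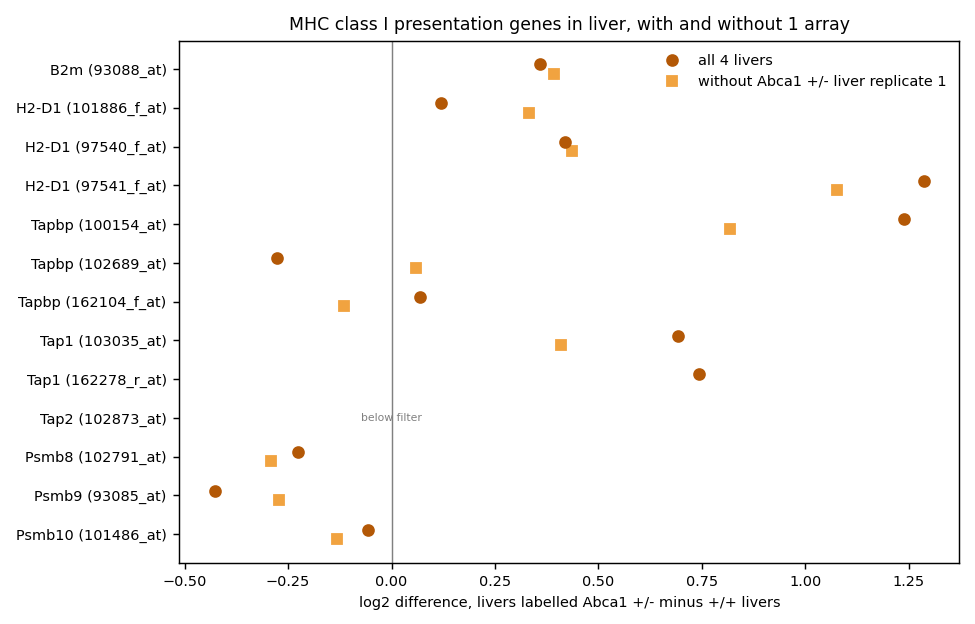
Log2 differences of the member probe sets between livers labelled Abca1 +/- and +/+ livers, with all 4 arrays (circles) and without replicate 1 of the livers labelled Abca1 +/- (squares). No point passed, Tapbp (100154_at) is at 1.24 with that array and 0.82 without it, and Tap1 (162278_r_at) and Tap2 lack points where they were below the signal minimum.

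The +/+ livers had more signal than ES cells for both chains of the class I molecule and for Psmb8. Counts are given over probe sets with a mean signal of at least 100 in both groups compared, since a probe set that is bright in 1 tissue alone entered the fit through that tissue. Against ESVJ, 7 of 10 such member probe sets were higher and 0 lower, where 22.9% of 5736 such probe sets passed as higher, 40.7% as lower and 63.7% in either direction. B2m differed by 5.93 (61.2-fold), H2-D1 by 4.12 in 101886_f_at and 4.22 in 97540_f_at, Psmb8 by 2.90, Psmb9 by 2.71, Tap1 by 1.15 and Tapbp by 1.08 in 102689_at, with adjusted p from 1.65e-13 to 0.00223. Psmb9 entered the count narrowly, with a mean of 106 in ESVJ cells and arrays at 29.8, 167 and 123. H2-D1 by 97541_f_at, left out of the count, averaged 438 in +/+ livers and 20.0 in ESVJ cells. The median of all 7841 probe sets tested was -0.42 in this comparison and -0.12 after quantile normalization, and of all calls 34% were higher, or 45.1% after quantile normalization. Psmb10 (0.44, adjusted p = 0.0724) and Tapbp by 100154_at (0.47, adjusted p = 0.0588) did not pass, nor did Tapbp by 162104_f_at (0.29, adjusted p = 0.239).

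Against E14, which shares the +/+ livers with the previous comparison, 4 of 9 member probe sets bright in both groups were higher and 1 lower, where 25.8% of 5610 such probe sets passed as higher, 41.8% as lower and 67.6% in either direction. B2m differed by 3.64 (12.4-fold), H2-D1 by 3.48 in 101886_f_at and 3.32 in 97540_f_at, and Psmb8 by 1.32. Left out of the count as dim in E14 were Psmb9, which averaged 798 in +/+ livers and 67.5 in E14 cells, and H2-D1 by 97541_f_at, which averaged 438 in +/+ livers and 44.4 in E14 cells. Tapbp by 100154_at was lower in liver, at 649 ± 102 in +/+ livers (SD, n = 2) and 1995 ± 145 in E14 cells (SD, n = 3), a difference of -1.58 (SE 0.22, adjusted p = 3.64e-06). The other Tapbp probe sets did not share this, with 0.48 for 162104_f_at (95% interval 0.03 to 0.93, adjusted p = 0.0502, every +/+ liver above every E14 array) and 0.07 for 102689_at (adjusted p = 0.822). Tap1 was at -0.38 (95% interval -0.78 to 0.01, adjusted p = 0.0757) and at 0.09 after quantile normalization, so its order between liver and E14 was not settled. The chains of the class I molecule were therefore higher in liver than in either +/+ ES line, while Tapbp by 100154_at and Tap1 did not pass as higher than in E14.

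Of the other class I and class I-like heavy chains bright in both groups, 7 of 9 were higher in +/+ livers than in ESVJ and 6 of 8 higher than in E14, with 0 lower in each. H2-Q10 differed by 5.97 from ESVJ and 6.37 from E14, and the lipid-presenting Cd1d1, which was dim in E14, by 5.26 from ESVJ. The constitutive proteasome list had 4 higher and 2 lower of 15 against ESVJ and 8 higher and 1 lower against E14. In liver Psme1 was higher than in ESVJ (1.73) and in E14 (0.67), and Psme3 was lower than in ESVJ (-2.43) and in E14 (-2.74). Livers also contain leukocytes: the 17 leukocyte and Kupffer cell markers summed to 6656 and 8312 in +/+ livers and to 1973 to 3293 over the ES arrays. The single markers were not alike. Clec4f averaged 1631 in +/+ livers, 36.2 in E14 and 50.2 in ESVJ cells, but Laptm5 averaged 533, 922 and 1022 and Coro1a 113, 155 and 178, in the same order. In +/+ livers 4 of the 17 averaged under 100. Of 3 class II genes bright in both groups 2 were higher in liver than in each ES line, and the part of these cells in the liver signal was not tested.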

How the data were processed

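Gene expression was measured on 16 U74Av2 arrays. Per the labels, the authors processed the arrays with MAS5.0 at default settings. The deposited values are linear signal intensities per probe set, without detection calls, scaled to a 2% trimmed mean of 1501 to 1502 in every array.

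Each array was rescaled to a trimmed mean of 500, and log2(signal + 32) was compared with limma 3.58.1 in R 4.3.3 (eBayes with an intensity trend). Only probe sets whose mean signal in a fit reached 100 entered it, without 66 control probe sets, and p-values were adjusted by Benjamini-Hochberg over all of them (threshold 0.05). The 4 ES groups shared 1 fit (12 arrays, 8 residual degrees of freedom, 7349 probe sets), the livers another (4 arrays, 2 degrees, 7160 probe sets), and tissues were compared over 16 arrays (10 degrees, 7841 probe sets). Tissue counts take only probe sets with a mean of at least 100 in both groups, a restriction chosen after seeing the data. The steps were tested on simulated data. The number of arrays limits the precision: the typical 95% interval was ±0.37 within ES cells, ±0.85 between livers and ±0.51 between tissues.

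Named are all member probe sets, the 3 genes most correlated with B2m, H2-D1, Psmb8 and Psmb10, and Cdk4 and Abca1. Genes of a list were drawn from those that passed in a comparison (up to 6) or else the 2 with the smallest p. Not all genes that this rule gives are named in the text. Irf1, the counterparts Psmb5, Psmb6 and Psmb7 and the lists' single markers were named after their values were seen. Genes of a list were represented by their brightest probe set. The members and lists were chosen with earlier results of these data known. Replicate numbers follow the listed order and pair nothing. Alternatives were other scalings, pseudocounts of 1 and 100, no filter or one of 200, no trend, other fits, leaving out each array, and, chosen after seeing the data, leaving out or modelling the arrays with a high BioB signal. Promoters and gene order are from RefSeq, GRCm38.p6. A further promoter motif is not reported here. No build is given for the array, so probe positions are not reported.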

Additional observations from a re-analysis of the deposited data

How the results depend on the processing

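No paired analysis was possible because the labels give no replicate numbers, and the listed order pairs nothing. Of 1084 values of single members under the alternatives, 1013 kept their direction and side of the threshold, 28 no longer passed, 22 passed newly and 21 changed sign. In E14 against ESVJ 7 of 9 members passed without each array in turn. With probe sets bright in liver alone included, 8 of 11 members were higher in +/+ livers than in ESVJ, and 6 of 11 higher and 1 lower than in E14. For Cdk4 +/- against E14, 361 probe sets passed in all and 3 members; without the signal filter these were 196 and 0, without the intensity trend 227 and 1, over 16 arrays 35 and 0, over the 2 compared groups 174 and 1, and without 1 array in turn 68 to 521 and 0 to 3. The counts over all fell by over 1.5 times without replicate 1 or 2 of E14 (106 and 116) or replicate 1 or 3 of Cdk4 +/- (68 and 76). For Abca1 +/- against ESVJ 2 passed in all, 1 without the filter, with a filter of 200, over the 2 groups, with BioB as a term or without any 1 array, 0 over 16 arrays and 4 without the 3 arrays of high BioB. For the difference between these effects 46 passed, 23 on the deposited scale, 16 without the filter, 19 without the trend, 1 over 16 arrays and 5 to 93 without 1 array: 15, 15 and 93 without E14 replicates 1, 2 and 3, 6 and 5 without Cdk4 +/- replicates 1 and 3, 6 and 16 without Abca1 +/- replicates 2 and 3, and 23 and 8 without ESVJ replicates 1 and 3. Members were 0 to 1, the 1 being Psmb8 without replicate 3 of E14 (-1.37, adjusted p = 0.0322). Between livers 1 passed in all, 2 on the deposited scale, 0 after quantile normalization or without the trend, 3 without the filter, 1970 over 16 arrays and 9 to 1653 without 1 array, namely 9 and 1653 without replicates 1 and 2 of the livers labelled Abca1 +/- and 82 and 27 without replicates 1 and 2 of the +/+ livers; members were 0, 3 over 16 arrays and 0 to 3 without 1 array.

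The differences whose sign changed passed neither as reported nor under any alternative, and the cause was not tested. Tapbp by 162104_f_at in Cdk4 +/- against E14 was -0.0100 after quantile normalization, -0.13 without the 3 arrays of high BioB, -0.0616 with BioB as a term and -0.13 to 0.17 without 1 array. In Abca1 +/- against ESVJ, B2m was -0.0704 without the 3 arrays and -0.0770 to 0.53 without 1 array, H2-D1 by 101886_f_at -0.0970 to 0.0611, and Tapbp by 102689_at -0.29 to 0.18. Psmb10 in E14 against ESVJ was -0.12 to 0.21. Between livers, Tapbp by 162104_f_at was -0.0263 after quantile normalization and -0.12 to 0.25 without 1 array, H2-D1 by 101886_f_at -0.10 to 0.33, Tapbp by 102689_at -0.615 to 0.0595 and Psmb10 -0.25 to 0.14. For +/+ livers against E14, Tap1 was 0.0945 after quantile normalization, and Tapbp by 102689_at was -0.10 to 0.20 without 1 array.

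Dim probe sets limit what can be said: Tap2, Psmb9, Tap1 by 162278_r_at and H2-D1 by 97541_f_at had means under 100 over the ES arrays and were not tested there. Under some alternatives Tap1 by 162278_r_at fell below the minimum between livers and gave no value.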
